A study of Mus musculus with 36 samples.

Results

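The comparison described here sets embryoid bodies of the control mouse stem cell line at day 10 of differentiation against those at day 8. It rests on 6 of the 36 libraries of the series, 3 per day, which were chosen by their labels for genotype and time point. Both groups are AB2.2 cells, a mouse embryonic stem cell line, with LncCPR, the long noncoding RNA that the study deletes in its other line, left in place. In both groups the cytokine LIF had been withdrawn and the cells were grown as hanging-drop embryoid bodies, and total RNA was taken from whole embryoid bodies at day 10 or at day 8 after the drops were set. The study as a whole follows control and LncCPR-knockout cells over 6 time points and asks how the deletion affects the formation of heart muscle. The labels do not say whether the 3 libraries of a day came from separate cultures, so p-values measure the spread between these libraries, which may be technical.

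An embryoid body is an aggregate in which cells of the germ layers arise side by side, without the order of an embryo. Early on, Nodal, Wnt and FGF signals drive some of its cells through a primitive streak-like state into mesoderm and endoderm, and mesoderm gives rise to heart muscle, endothelium, primitive blood and the connective tissue cells that lay down collagen. Visceral endoderm, an extraembryonic layer, secretes carrier proteins that are also known from fetal liver. In heart muscle the sarcomere genes appear first, and genes for calcium uptake and for adult isoforms of the contractile proteins follow.

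Levels are FPKM, a unit that corrects fragment numbers for transcript length and for the size of the library. On the log2(FPKM + 1) scale, 12761 of 37561 gene entries were tested, those whose 6 libraries averaged at least 1 FPKM. Fold changes are log2 of day 10 over day 8 on that scale, which understates the change of low genes, and SE is their standard error. Adjusted p-values come from limma and are corrected by the Benjamini-Hochberg method across all of these genes; a gene was called at an adjusted p below 0.05. FPKM sums per library were 298809 to 318504 at day 10 and 299260 to 332943 at day 8. Depth relative to day 8 replicate 1 was estimated from the most common FPKM ratio among genes seen in few libraries. These estimates lay between 0.859 and 1.197, and for day 10 they would include any scaling that differs between the tables. Replicate 3 stood apart on both days, with 30.3% of its FPKM in the 10 most abundant genes at day 10 and 28.6% at day 8, against 13.9% to 15.6% in the other 4 libraries. The short RNA entry n424047 was listed at 40180 FPKM in day 10 replicate 3 and 37354 FPKM in day 8 replicate 3, against 1000 to 1742 FPKM elsewhere. The values of days 10 and 8 stand in different tables, whose normalization may have been done apart, and each level set across the days carries that limit.

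Between day 8 and day 10 the control embryoid bodies gained RNA of the extracellular matrix, of proteins secreted by visceral endoderm, and of single heart muscle genes such as Pln and Myl2. They lost RNA of genes of the streak and of some genes listed for stem cells, not all of which were highest at day 0. In all, 710 genes were called, 5.56% of those tested, with 502 higher at day 10 (3.93%) and 208 lower (1.63%). Of these, 159 rose and 51 fell by more than a log2 change of 1. The 3 libraries of day 10 lay apart from the 3 of day 8 in 708 of the 710, as they did in 24.4% of all genes tested, and 0.1 is the smallest exact p that 3 against 3 allows. The share called higher was 70.7%. After each library was rescaled by its median ratio to the others, 1646 genes were called (12.9%), 905 higher (7.09%) and 741 lower (5.81%), so 55.0% of the calls were higher, and 695 of the 710 were called the same way. Leaving out day 10 replicate 2 left 353 calls and leaving out day 8 replicate 2 left 405, and 253 genes were called in all 6 ways to leave out 1 library. Embryoid bodies are mixtures, so a change of this kind may reflect fewer or more cells of a type or a different amount of RNA per cell, which cannot be told apart here.

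**Figure D1:**
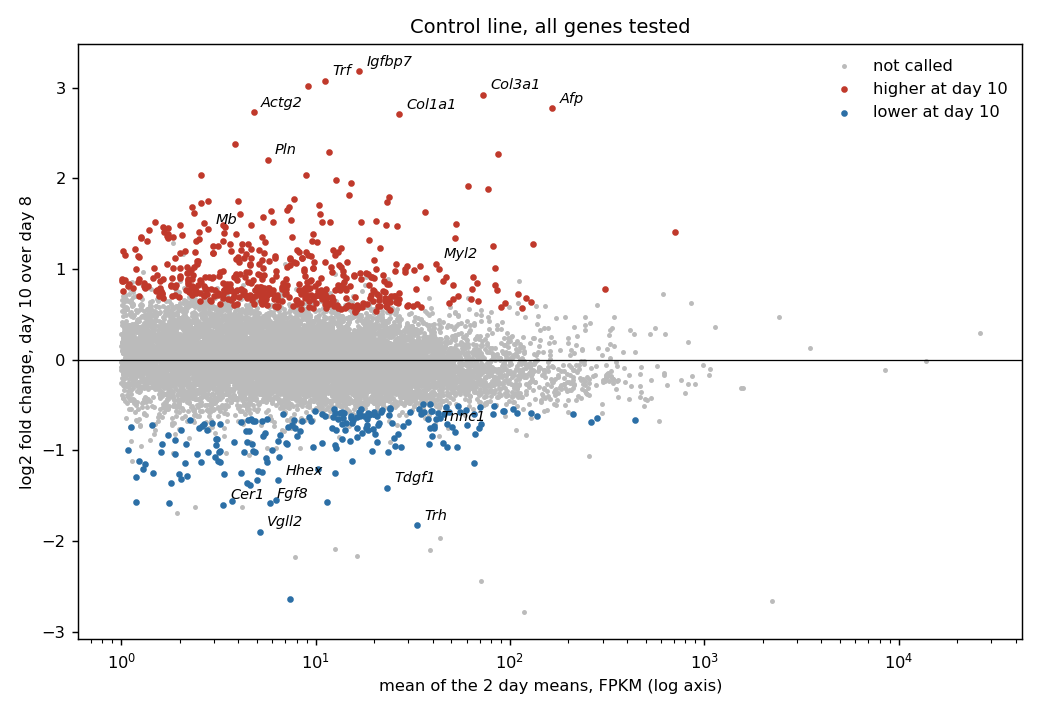
Each point is 1 of the 12761 genes tested in the control line, with the mean of its day 10 and day 8 means in FPKM on a log axis and its log2 fold change, day 10 over day 8. Red points are the 502 genes called higher at day 10, blue points the 208 called lower, and grey points were not called. The matrix and visceral endoderm genes lie at the top. The lowest blue point, Gm10718, had 39.1 FPKM in day 8 replicate 2, against 1.76 and 2.96 FPKM in the other day 8 libraries. Its call held without that library and was lost without day 10 replicate 2 or day 10 replicate 3.

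Among the gene lists, those of the extracellular matrix had the highest shares of members called higher. Of 29 collagen genes tested, 16 were called higher and 0 lower, with a median log2 fold change of 0.98, against -0.00072 over all genes tested. Of 36 genes for matrix glycoproteins and other fibroblast products, 19 were called higher and 0 lower (median 0.64), and of 18 genes of basement membranes, 11 higher and 0 lower (median 0.63). These shares stand beside the 3.93% of all genes that were called higher. The counts of each list below are likewise to be read beside 3.93% of all genes called higher and 1.63% called lower. Counts after rescaling are to be read beside 7.09% called higher and 5.81% called lower. The count of collagens was 14 to 17 when any 1 library was left out. That of matrix glycoproteins fell to 12 without day 10 replicate 2. That of basement membrane genes, whose changes were smaller, fell to 3 without day 10 replicate 2, 4 without day 8 replicate 2 and 5 without day 10 replicate 1.

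Col3a1, which encodes type III collagen, had 114, 156 and 118 FPKM at day 10, against 18.3, 15.6 and 14.5 FPKM at day 8. Col1a1, which encodes the main chain of type I collagen, had 45.7, 56.5 and 40.3 FPKM at day 10, against 8.34, 5.37 and 5.67 FPKM at day 8. In both genes every day 10 library stood well above every day 8 library. Col3a1 rose by a log2 fold change of 2.92 (SE 0.16, adjusted p = 3.62e-08) and Col1a1 by 2.71 (SE 0.18, adjusted p = 3.35e-07). Col1a2, whose product is the other chain of type I collagen and which is named here after its values were seen, rose by 1.80 (SE 0.17), to 35.998, 46.3 and 30.5 FPKM at day 10, against 10.2, 9.07 and 10.6 FPKM at day 8. Col5a2, a chain of type V collagen (2.29), and Col6a3, a chain of the microfibrils of type VI (2.38), rose at lower levels. Col6a3 had 7.32, 7.71 and 6.39 FPKM at day 10, against 0.451, 0.605 and 0.636 FPKM at day 8. The 16 called collagens spanned log2 fold changes from 0.58 to the 2.92 of Col3a1.

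Periostin, a matricellular protein of cushion and connective tissue, rose with the collagens. Postn had 125, 190 and 116 FPKM at day 10, against 30.2, 33.8 and 22.1 FPKM at day 8, a log2 fold change of 2.27 (SE 0.20, adjusted p = 4.2e-06). The small leucine-rich proteoglycans lumican and biglycan rose with it. Lum had 11.5, 20.7 and 12.9 FPKM at day 10, against 2.94, 2.53 and 2.87 FPKM at day 8 (log2 fold change 2.04). Bgn had 22.5, 28.6 and 23.4 FPKM at day 10, against 5.82, 5.44 and 5.74 FPKM at day 8 (1.95, SE 0.15), and the day 8 libraries of this gene were nearly alike. Igfbp7, a secreted binding protein for insulin-like growth factors, showed the highest fold change of the named genes, 3.18 (SE 0.18, adjusted p = 3.62e-08), with 27.4, 37.3 and 28.1 FPKM at day 10 and 2.94, 1.90 and 2.70 FPKM at day 8. Day 10 replicate 2 was the highest library for each of these genes. Decorin (Dcn, 1.61), the TGF-beta induced adhesion protein Tgfbi (1.74) and the collagen prolyl hydroxylase subunit P4ha2 (1.00) were also called higher.

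The basement membrane genes moved together by smaller steps, between 0.58 and 1.04 for the 11 called. Lama1, a laminin chain of early basement membranes, had 21.7, 27.5 and 18.9 FPKM at day 10, against 12.5, 10.7 and 11.7 FPKM at day 8 (a log2 change of 0.89, SE 0.16, adjusted p = 0.00351). Sparc, an abundant collagen-binding protein that is also counted in the matrix list, had 381, 476 and 323 FPKM at day 10 and 249, 229 and 203 FPKM at day 8 (0.78, adjusted p = 0.0166). It lost its call without day 10 replicate 2 and without day 8 replicate 2. Has2, which makes the hyaluronan of cardiac jelly, went the other way: it fell to 41.9, 36.5 and 29.7 FPKM at day 10, against 78.9, 70.9 and 63.0 FPKM at day 8 (a log2 change of -0.97, SE 0.16, adjusted p = 0.00177). In the list for cardiac cushion and valve, which shares the called genes Postn, Bgn and Fbln1 with the matrix list, 8 of 19 genes were called higher and 2 lower, Has2 and the homeobox gene Msx1. The call of Msx1 was lost whichever 1 of the 6 libraries was left out. Among its risers was Prrx1, a homeobox gene of mesenchyme, at 9.39, 7.80 and 8.57 FPKM at day 10, against 3.17, 4.91 and 3.65 FPKM at day 8 (0.98). Without day 10 replicate 2 the count of 8 fell to 4, and it was 5 without day 10 replicate 1 and 5 without day 8 replicate 2.

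**Figure D2:**
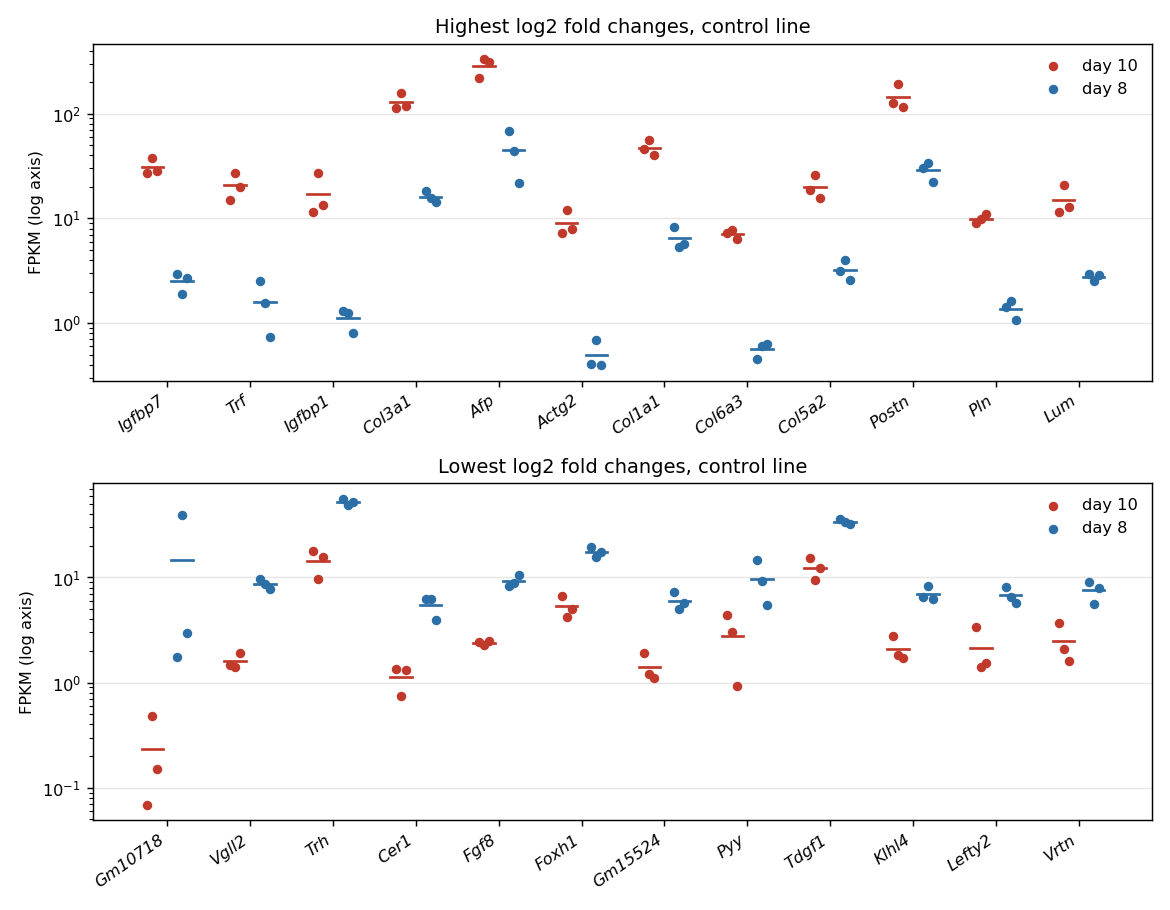
FPKM of each library on a log axis, for the 12 genes with the highest (top) and the 12 with the lowest (bottom) log2 fold changes among called genes with no overlap between days; red points are day 10, blue points day 8, and a line marks the mean of 3 libraries. The collagens, Igfbp7 and Postn stand apart by day in tight groups, while Afp and Trf spread more at day 8 and Gm10718 is drawn out by 1 library of day 8 at 39.1 FPKM.

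Proteins secreted by visceral endoderm formed the next group. Of 33 entries tested, 14 were called higher and 0 lower, and the median log2 fold change was 0.82; the 14 include 2 entries that share the symbol Trf. The summed level of the list was 1915 to 2867 FPKM at day 10 and 982 to 1567 FPKM at day 8. Leaving out day 8 replicate 1 gave 22 calls, and leaving out replicate 3 of both days gave 9. Afp, alpha-fetoprotein, had 221, 330 and 309 FPKM at day 10, against 67.7, 44.1 and 21.9 FPKM at day 8. The lowest day 10 library was more than 3 times the highest day 8 library, and the highest day 8 library was about 3 times the lowest. For Afp the log2 fold change was 2.77 (SE 0.29, adjusted p = 2.49e-05). Transferrin, the iron carrier of plasma, had 14.9, 27.3 and 19.8 FPKM at day 10, against 2.52, 1.54 and 0.746 FPKM at day 8 at the first of the Trf entries (3.08, SE 0.24). The apolipoprotein Apoa1 had 70.9, 128 and 87.3 FPKM at day 10 and 39.5, 22.7 and 15.1 FPKM at day 8 (1.91, SE 0.27, adjusted p = 4.66e-04), and the retinol carrier Rbp4 39.8, 75.8 and 52.5 FPKM at day 10 and 23.9, 11.4 and 17.4 FPKM at day 8 (1.63).

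Fibrinogen is made of 3 chains, encoded by neighbouring genes, and all 3 were called higher. Fgb had 17.1, 29.4 and 24.5 FPKM at day 10, against 8.44, 6.41 and 3.59 FPKM at day 8 (a log2 change of 1.82, SE 0.24, adjusted p = 2.64e-04). Fga, which is named here after its values were seen, had 3.47, 5.49 and 4.32 FPKM at day 10, against 1.37, 0.676 and 0.693 FPKM at day 8 (1.51, SE 0.21). Ttr, the thyroid hormone carrier transthyretin, was not called at 105, 213 and 114 FPKM at day 10 and 112, 72.8 and 50.04 FPKM at day 8 (0.87, SE 0.27, adjusted p = 0.0740), and the libraries of the days overlapped. Serum albumin, which marks hepatocytes, was at 0.084 to 0.167 FPKM at day 10 and 0 to 0.060 FPKM at day 8, below the filter. Igfbp1, a growth factor binding protein known from liver and decidua that stands on none of the lists for endoderm, had 11.6, 26.8 and 13.3 FPKM at day 10, against 1.31, 1.24 and 0.803 FPKM at day 8 (3.02, SE 0.25). The list of endoderm transcription factors, which also holds the chemokine receptor Cxcr4, did not move with the secreted proteins. Of 17 genes tested, 1 was called higher, Onecut1 (1.19), and 5 lower, Hhex, Eomes, Cxcr4, Lhx1 and Otx2. Eomes and Lhx1 also stand on the streak list, Otx2 on the stem cell list and Hhex on the endothelial list. Foxa2 had 10.9, 12.9 and 10.6 FPKM at day 10 and 15.1, 13.1 and 15.9 FPKM at day 8 (-0.34, adjusted p = 0.244).

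The promoters of these secreted proteins are a textbook place of binding for HNF1 factors, whose site is a palindrome of the half-site GTTAAT. The 120 bases before the transcription start of Afp, Fga and Fgb each hold 1 match, shown in capitals, and the same stretch of Apoa1 holds none. The sequences are RefSeq's for GRCm38.p6, written 5′ to 3′ on the strand of the gene, at chr5:90490594-90490713 and chr3:83026033-83026152 on the plus strand, chr3:83049864-83049983 on the minus strand and chr9:46228510-46228629 on the plus strand. ATTAAC is the half-site read from the other strand.
Afp: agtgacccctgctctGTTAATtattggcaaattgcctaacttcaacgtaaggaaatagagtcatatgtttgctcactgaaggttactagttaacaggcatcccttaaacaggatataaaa
Fga: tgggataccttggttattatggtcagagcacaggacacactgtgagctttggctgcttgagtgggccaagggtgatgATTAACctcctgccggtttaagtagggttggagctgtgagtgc
Fgb: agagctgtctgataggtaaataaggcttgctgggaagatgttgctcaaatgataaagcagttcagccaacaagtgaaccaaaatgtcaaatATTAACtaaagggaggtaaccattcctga
Apoa1: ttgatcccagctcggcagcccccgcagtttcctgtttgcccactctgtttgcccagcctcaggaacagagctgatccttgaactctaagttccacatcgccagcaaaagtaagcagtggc
Of the genes of this list called higher, 11 had a promoter in the RefSeq table, and the 250 bases before the start held GTTAAT or ATTAAC in 3 of them (27.3%). The same window held it in 1762 of 27025 promoters of all genes (6.52%), in 0 of 12 called collagens, in 2 of 10 called matrix glycoprotein genes and in 1 of 8 called basement membrane genes. Searched in the same window on both strands, TATAAA was in 3 of the 11 (27.3%) and in 13.0% of all promoters, and CCAAT in 3 of the 11 and in 34.5% of all promoters. With 3 promoters in each count, these matches describe the letters in the windows and no binding.

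**Figure D3:**
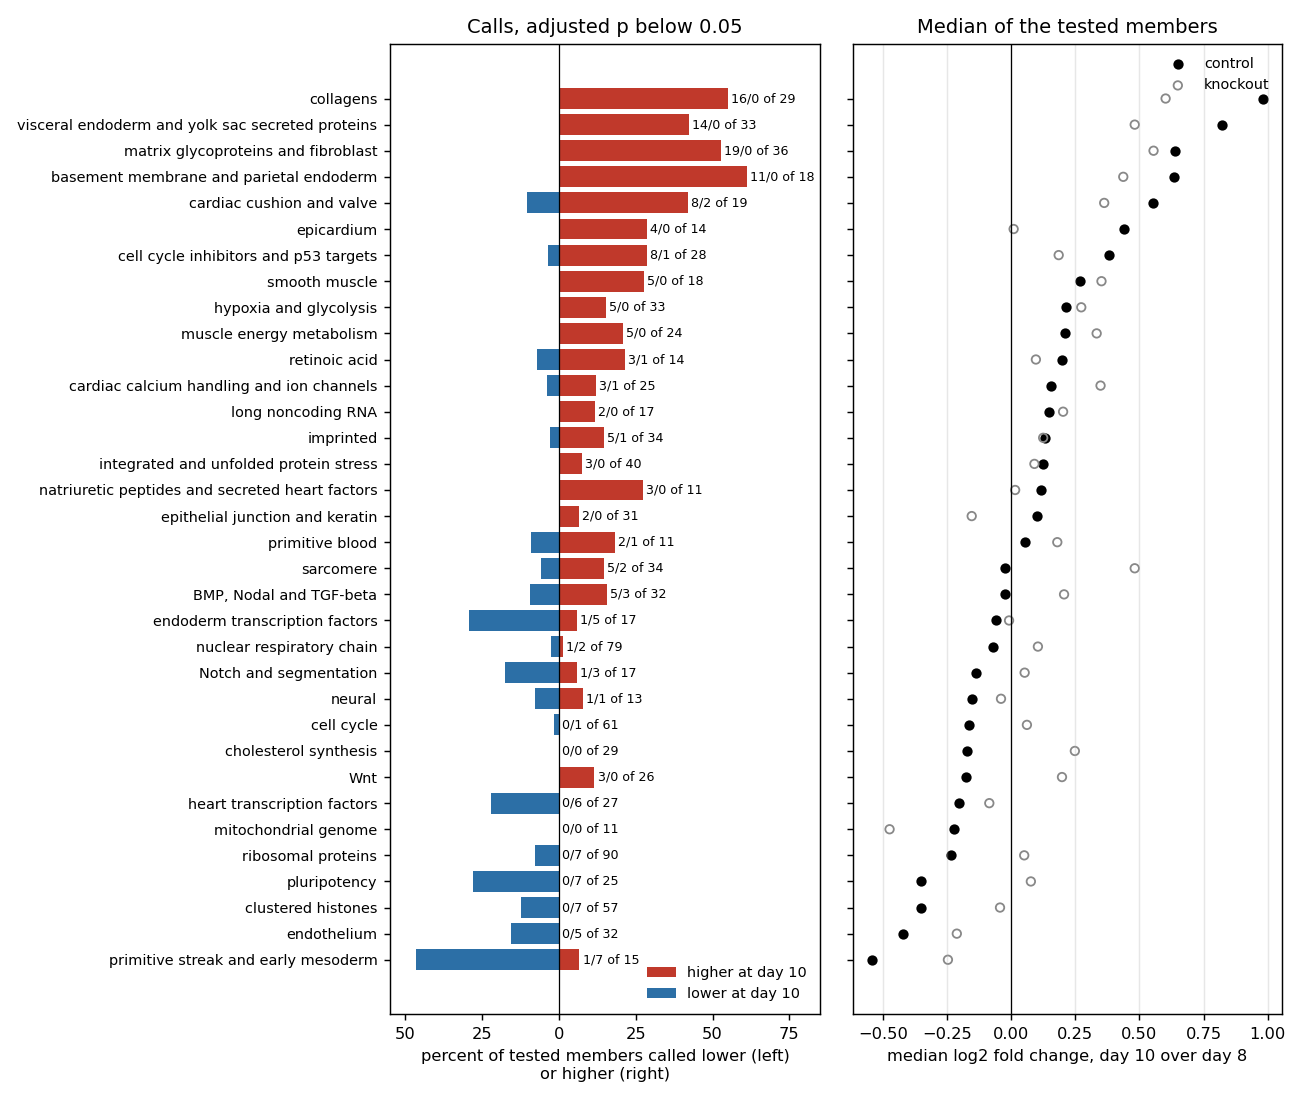
Gene lists with 10 or more members tested, ordered by the median log2 fold change of the control line. The left panel gives the percent of tested members called higher (red, right) and lower (blue, left) at day 10, with the numbers higher/lower of tested beside each bar, and the right panel the median log2 fold change in the control line (filled) and the knockout line (open); collagens, secreted endoderm proteins and matrix genes lead, and streak and endothelial genes are last.

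Heart muscle was present on both days, and its genes did not move as a block. All of its defining markers were detected: mean levels at day 10 and day 8 were 181 and 122 FPKM for Myh6, 122 and 168 FPKM for Tnnt2, 330 and 304 FPKM for Actc1, 3.54 and 5.19 FPKM for Nkx2-5, and 9.55 and 7.40 FPKM for Ryr2, none of them called. Of 34 sarcomere genes tested, 5 were called higher and 2 lower, beside 3.93% and 1.63% of all genes, with a median log2 fold change of -0.02. The count of 5 was 3 without day 10 replicate 3. Myh6, the alpha myosin heavy chain, had 164, 188 and 191 FPKM at day 10 and 89.6, 145 and 131 FPKM at day 8; the days did not overlap, but the change of 0.60 missed the threshold (SE 0.18, adjusted p = 0.0661). Myh7, the beta chain, had 123, 118 and 118 FPKM at day 10, against 127, 139 and 131 FPKM at day 8 (-0.14, adjusted p = 0.640). Titin was listed at 0 in all libraries but day 8 replicate 1, so no change is given for it.

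The sarcomere genes that rose include isoforms of the ventricle and of the mature heart. Myl2, the ventricular regulatory light chain, had 51.8, 52.2 and 66.3 FPKM at day 10, against 25.4, 31.5 and 23.3 FPKM at day 8 (a log2 change of 1.06, SE 0.16, adjusted p = 8.41e-04). Cardiac troponin I, Tnni3, which replaces the fetal form as the heart matures, had 18.4, 18.4 and 25.6 FPKM at day 10, against 11.3, 13.1 and 7.46 FPKM at day 8 (0.92, SE 0.20, adjusted p = 0.0106), and lost its call without day 10 replicate 3. The fetal form Tnni1 had 70.4, 64.1 and 53.5 FPKM at day 10 and 81.5, 98.9 and 70.8 FPKM at day 8, a change of -0.41 that was not called (adjusted p = 0.175). The other sarcomere genes called higher were the myosin gene Myh7b (0.94) and the Z-disc genes Actn2 (0.54) and Csrp3 (0.71), both of which are named here after their values were seen. Mean Myh7b was 2.34 FPKM at day 10 and 2.42 FPKM at day 0, in undifferentiated cells. Troponin C, Tnnc1, and skeletal alpha-actin, Acta1, fell. Tnnc1 had 26.7, 33.7 and 30.0 FPKM at day 10, against 51.2, 59.3 and 42.6 FPKM at day 8 (-0.73, SE 0.16, adjusted p = 0.0121), and Acta1 11.3, 12.1 and 8.74 FPKM at day 10, against 18.9, 20.1 and 15.1 FPKM at day 8 (-0.70). Both calls were lost without day 8 replicate 2, that of Tnnc1 also without day 10 replicate 1 and that of Acta1 also without day 10 replicate 3. The atrial light chain Myl7 had 139, 147 and 132 FPKM at day 10 and 189, 223 and 176 FPKM at day 8 (-0.48, adjusted p = 0.0823), and was called lower after rescaling (adjusted p = 0.0236).

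The lists of calcium handling and muscle energy metabolism held some large changes, measured in whole embryoid bodies. Phospholamban, the inhibitor of the calcium pump of the sarcoplasmic reticulum, had the largest of them: Pln had 9.02, 9.79 and 11.1 FPKM at day 10, against 1.42, 1.64 and 1.08 FPKM at day 8. Its log2 fold change was 2.21 (SE 0.17, adjusted p = 1.66e-06), and it was called in all 6 ways to leave out 1 library. The T-type calcium channel Cacna1h (1.14) and the inward rectifier channel Kcnj2 (0.72) were also called higher, and the connexin Gja5 fell to 0.786, 0.478 and 0.880 FPKM at day 10, against 2.03, 2.47 and 2.93 FPKM at day 8 (-1.02). In all, 3 of 25 genes of calcium handling and ion channels were called higher and 1 lower, beside 3.93% and 1.63% of all genes. The call of Kcnj2 held in 2 of 6 ways to leave out 1 library. Of 24 genes of muscle energy metabolism, 5 were called higher and 0 lower, where 3.93% of all genes were called higher. Myoglobin, the oxygen store of muscle, had 4.74, 4.1002 and 4.72 FPKM at day 10, against 1.24, 1.58 and 0.459 FPKM at day 8 (Mb, 1.44, SE 0.22). The insulin-responsive glucose transporter Slc2a4 had 21.3, 17.0 and 14.4 FPKM at day 10 and 9.31, 5.46 and 6.42 FPKM at day 8 (1.22), and lipoprotein lipase, Lpl, 9.34, 9.85 and 7.86 FPKM at day 10 and 4.19, 4.55 and 4.97 FPKM at day 8 (0.84). At days 0 and 3 mean Slc2a4 was already 2.01 and 2.99 FPKM and mean Lpl 3.02 and 3.15 FPKM. Without day 10 replicate 2 the count of 5 was 3, as it was without day 8 replicate 2.

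Smooth muscle genes gave 5 called higher and 0 lower of 18 tested, where 3.93% of all genes were called higher. The count of 5 was 3 without day 10 replicate 1, day 10 replicate 2 or day 8 replicate 2. Actg2, the gamma-actin of visceral smooth muscle, had 7.31, 12.1 and 7.88 FPKM at day 10, against 0.407, 0.690 and 0.398 FPKM at day 8 (a log2 change of 2.73, SE 0.20, adjusted p = 1.15e-06), so that it was below 1 FPKM in each day 8 library and above 7 in each day 10 library. The light chain Myl9 rose to 53.5, 72.3 and 48.4 FPKM at day 10, against 35.9, 26.3 and 23.3 FPKM at day 8 (1.00). The far more abundant Acta2 was not called, at 496, 567 and 384 FPKM at day 10 and 410, 425 and 344 FPKM at day 8 (0.28, adjusted p = 0.440), and Myh11, the heavy chain of mature smooth muscle, lay between 0.205 and 0.387 FPKM in the 6 libraries. Of 14 epicardial genes, 4 were called higher and 0 lower, where 3.93% of all genes were called higher. Tcf21, a transcription factor of epicardium and cardiac fibroblasts, had 2.60, 3.09 and 4.204 FPKM at day 10, against 1.09, 1.28 and 1.53 FPKM at day 8 (0.89, adjusted p = 0.0133, not called without day 10 replicate 3), while Wt1 was not called (0.46, adjusted p = 0.237). That count was 2 without day 10 replicate 2, 2 without day 10 replicate 3, and 1 without replicate 3 of both days.

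Of 27 transcription factors of the heart tested, 0 were called higher and 6 lower, where 1.63% of all genes were called lower. The median log2 fold change was -0.20 and 11 of the 27 were above 0. After rescaling 2 were called higher and 6 lower, where 7.09% and 5.81% of all genes were. As deposited, 1 was called higher without day 10 replicate 3 or without day 8 replicate 1. Mef2c, an early activator of muscle genes, had 12.9, 14.2 and 10.6 FPKM at day 10, against 22.3, 26.0 and 30.5 FPKM at day 8 (a log2 change of -1.004, SE 0.16, adjusted p = 0.00158). Myocd, the coactivator of smooth and cardiac muscle genes, fell to 12.7, 9.91 and 8.31 FPKM at day 10, against 18.1, 17.4 and 18.8 FPKM at day 8 (-0.77). Both kept their call in all 6 ways to leave out 1 library. Gata4 (0.31), Hand2 (0.04), Tbx5 (0.45), Nkx2-5 (-0.43) and Isl1 (-0.15) were not called, with adjusted p from 0.160 to 0.926. Vgll2, a cofactor of TEAD factors known from muscle and branchial arches, fell the most of the named genes after Gm10718 (titin left out), to 1.49, 1.41 and 1.93 FPKM at day 10, against 9.75, 8.62 and 7.69 FPKM at day 8 (-1.89, SE 0.17, adjusted p = 8.61e-06).

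Genes of the primitive streak were the next group with members that fell. Of 15 streak and early mesoderm genes tested, 7 were called lower and 1, Meox1, higher, with a median log2 fold change of -0.54. The call of Meox1 held in 1 of 6 ways to leave out 1 library. Cer1, a secreted inhibitor of Nodal and BMP, had 1.34, 0.747 and 1.33 FPKM at day 10, against 6.31, 6.29 and 3.95 FPKM at day 8 (-1.60, SE 0.21, adjusted p = 2.47e-04). Fgf8, the growth factor that streak cells need to migrate, had 2.42, 2.29 and 2.51 FPKM at day 10, against 8.26, 8.79 and 10.7 FPKM at day 8 (-1.58, SE 0.17, adjusted p = 3.23e-05), with the day 10 libraries nearly alike. Among the genes with the lowest fold changes were Tdgf1, the Nodal coreceptor, Foxh1, a transcription factor that carries the Nodal signal with SMADs, and Lefty2, a Nodal inhibitor. They were named for these low fold changes. Of 32 genes tested from the broader TGF-beta family of pathways, which includes Nodal and BMP, 5 were called higher and 3 lower. These stand beside 3.93% and 1.63% of all genes, and the median log2 fold change was -0.03. The counts of 5 and 3 were 1 to 5 higher and 1 to 2 lower when 1 library was left out, and 1 and 1 without day 10 replicate 2. Tdgf1 fell to 15.4, 9.50 and 12.2 FPKM at day 10, against 36.2, 33.7 and 32.3 FPKM at day 8 (-1.41, SE 0.17). Foxh1 fell to 6.71, 4.24 and 5.04 FPKM at day 10, against 19.7, 15.7 and 17.4 FPKM at day 8 (-1.57, SE 0.17). Lefty2 fell to 3.41, 1.41 and 1.55 FPKM at day 10, against 8.05, 6.51 and 5.75 FPKM at day 8 (-1.36, SE 0.22). Eomes (-1.13), Mixl1 (-1.26) and Lhx1 (-1.02) were also called lower, while brachyury, T, was not, at 1.70, 1.28 and 2.60 FPKM at day 10 and 2.85, 2.44 and 3.96 FPKM at day 8 (-0.52, adjusted p = 0.183).

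The list of stem cell genes, which also holds genes that rise after day 0, gave 7 called lower and 0 higher of 25 tested (median -0.35). Of the 7, Pou5f1 and Tdgf1 had their highest control-line means at day 0, at 505 and 585 FPKM. Dnmt3b was highest at day 3, at 379 FPKM, against 25.6 FPKM at day 0. Fgf5 and Sall4 were highest at day 5, at 61.4 and 124 FPKM, against 0.126 and 67.8 FPKM at day 0. Pou5f1, which encodes OCT4, had 20.8, 12.4 and 14.2 FPKM at day 10, against 27.9, 24.7 and 25.3 FPKM at day 8 (a log2 change of -0.72, SE 0.18, adjusted p = 0.0261). It lost its call without day 10 replicate 2, without day 10 replicate 3 and without day 8 replicate 2. Dnmt3b, the de novo DNA methyltransferase, had 19.7, 16.6 and 17.999 FPKM at day 10, against 46.2, 33.3 and 30.6 FPKM at day 8 (-0.96), and Sall4 28.4, 33.9 and 31.0 FPKM at day 10, against 66.2, 53.9 and 59.1 FPKM at day 8 (-0.92). Nanog was not called at 8.51, 5.53 and 9.36 FPKM at day 10 and 10.3, 10.1 and 10.42 FPKM at day 8 (-0.39, adjusted p = 0.253). Trh, the precursor of thyrotropin-releasing hormone, fell to 17.8, 9.75 and 15.8 FPKM at day 10, against 56.2, 49.3 and 51.8 FPKM at day 8 (-1.83, SE 0.19, adjusted p = 2.49e-05). Its control-line mean was 26.6 FPKM at day 0 and 424 FPKM at day 3.

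Endothelial genes leaned down, with 5 called lower and 0 higher of 32 tested and a median of -0.42. The rescaled count was 13 lower, where 5.81% of all genes were called lower. The endothelial cadherin Cdh5 fell to 11.1, 9.68 and 7.66 FPKM at day 10, against 17.4, 19.2 and 17.4 FPKM at day 8 (-0.87, SE 0.16, adjusted p = 0.00399), but Pecam1 did not differ beyond its spread, at 16.4, 12.2 and 9.66 FPKM at day 10 and 12.4, 14.1 and 12.4 FPKM at day 8 (-0.05, adjusted p = 0.920). In undifferentiated cells at day 0, mean Pecam1 was already 28.9 FPKM and mean Cdh5 0.082 FPKM. Etv2, the factor that starts the endothelial and blood programme, fell to 0.661, 0.345 and 0.159 FPKM at day 10, against 1.33, 1.52 and 2.49 FPKM at day 8 (-0.99), and Hhex to 2.81, 3.27 and 3.47 FPKM at day 10, against 8.68, 7.91 and 12.3 FPKM at day 8 (-1.33). The count of 5 was 3 without day 10 replicate 2, without day 10 replicate 3 or without day 8 replicate 2. Primitive blood gave 2 called higher and 1 lower of 11: the embryonic globins Hbb-y and Hba-x rose and the carbonic anhydrase Car2 fell. At day 5 mean Car2 was 112 FPKM, while mean Hba-x was 0.029 FPKM. The count of 2 was 1 without day 10 replicate 1, day 10 replicate 2 or day 8 replicate 2, 3 without day 10 replicate 3 or day 8 replicate 1, and 4 without day 8 replicate 3. Hbb-y had 4.17, 5.90 and 2.20 FPKM at day 10, against 0.572, 0.173 and 0.864 FPKM at day 8 (1.68, adjusted p = 0.00103), and Hba-x 35.5, 37.8 and 16.9 FPKM at day 10, against 14.7, 12.8 and 15.6 FPKM at day 8 (0.94, adjusted p = 0.0261). Day 10 replicate 3 was the lowest of its day for both. The macrophage receptor Csf1r lay between 0.195 and 0.777 FPKM in the 6 libraries.

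Clustered histone and ribosomal protein genes were called lower more than higher. The share of cell cycle genes called lower was close to the 1.63% of all genes. Of 61 cell cycle genes, 1 was called, Mcm6, lower (-0.58, adjusted p = 0.0437, a call that held in 1 of 6 ways to leave out 1 library), and Mki67, which marks cycling cells, had 89.5, 103 and 75.6 FPKM at day 10 and 89.8, 86.3 and 89.8 FPKM at day 8 (log2 fold change 0.00, adjusted p = 0.998). After rescaling 12 of the 61 were called lower and 2 higher, where 5.81% and 7.09% of all genes were. Of 57 clustered histone genes, 7 were called lower and 0 higher (median -0.35), beside 1.63% of all genes called lower. The rescaled count was 21 lower, beside 5.81% of all genes. The count of 7 ran from 1 without day 10 replicate 3 to 15 without day 8 replicate 3, and was 4 without day 10 replicate 1 or day 8 replicate 1 and 3 without day 8 replicate 2. Of 90 ribosomal protein genes, 7 were called lower and 0 higher (median -0.23), beside 1.63% of all genes called lower. After rescaling 12 were called lower and 1 higher, beside 5.81% and 7.09% of all genes. The count of 7 was 1 without day 10 replicate 3, 2 without day 8 replicate 2 and 3 without day 8 replicate 1. Without replicate 3 of both days, the libraries that stood apart in their short RNA, 4 histone genes and 1 ribosomal protein gene were called lower. In that setting 1 cell cycle gene was called higher and 0 lower.

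Set in the course of all 6 time points of the control line, several of the genes named above that rose were low at day 5 and higher at day 12 than at day 10. Over days 5, 8, 10 and 12 in turn, mean Col1a1 was 0.241, 6.46, 47.5 and 74.6 FPKM, mean Afp 1.92, 44.6, 287 and 404 FPKM, and mean Pln 0.065, 1.38, 9.96 and 21.3 FPKM. Myl2 followed the same order with 0.403, 26.7, 56.8 and 90.5 FPKM, whereas Myh6 had 0.910, 122, 181 and 155 FPKM. Genes that fell had different earlier courses. Cer1 and Eomes had peaked at day 5, with means of 81.7 and 70.7 FPKM, and Fgf8 at 36.5 FPKM. Tdgf1 had its highest mean, 585 FPKM, in undifferentiated cells at day 0. Vgll2 and Mef2c instead were near 0 until day 5, at 0.057 and 0.605 FPKM, and stood highest at day 8, at 8.69 and 26.3 FPKM. At day 12 Vgll2 and Mef2c were lower than at day 10, at 0.962 and 10.9 FPKM. Cer1, Eomes and Fgf8 stayed nearer to day 10 than to day 8, at 2.05, 3.20 and 3.18 FPKM. Other means rose again. Over days 8, 10 and 12 in turn, mean Pou5f1 was 26.0, 15.8 and 24.5 FPKM. Mean Tdgf1 was 34.1, 12.4 and 22.1 FPKM, and mean Lefty2 6.77, 2.12 and 5.64 FPKM. The 6 tables may have been normalized separately, and no test was made across these days.

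**Figure D4:**
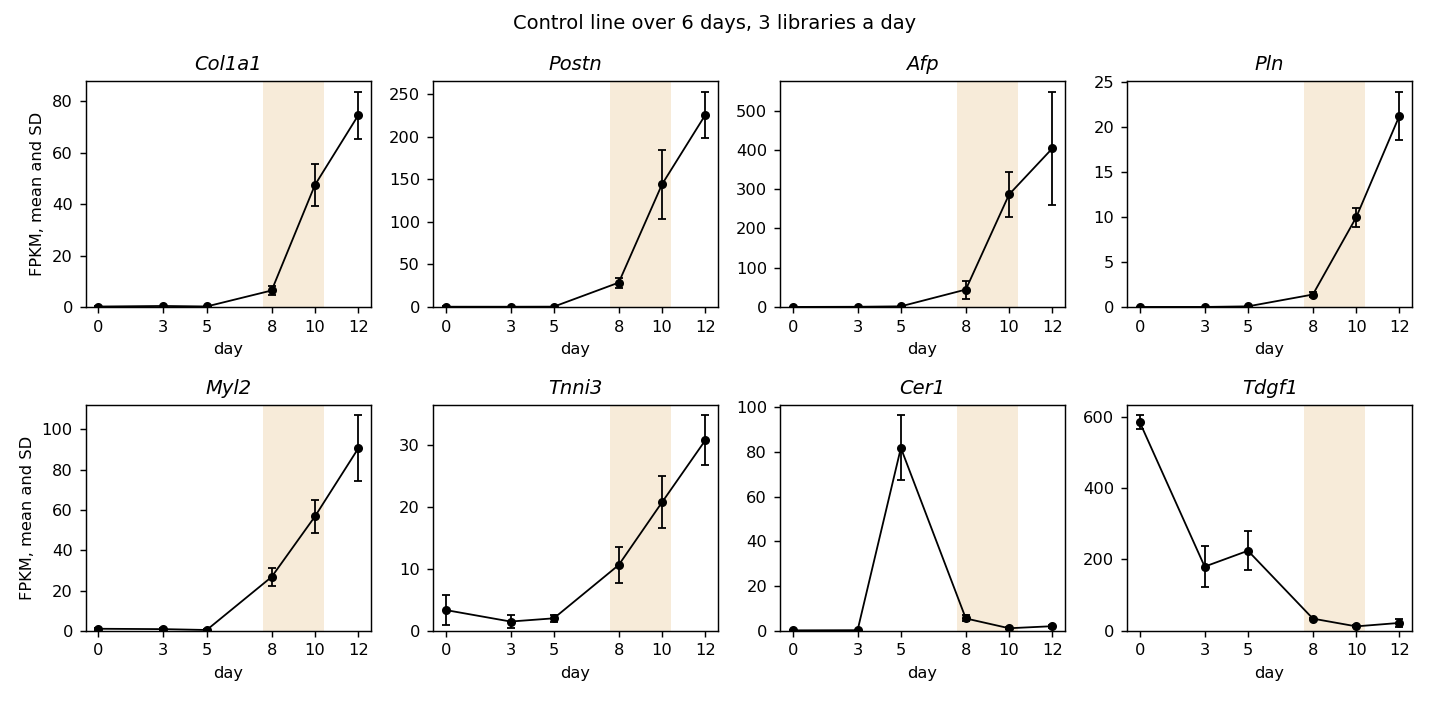
Mean FPKM of 8 genes in the control line at days 0, 3, 5, 8, 10 and 12, with bars of 1 SD over 3 libraries; the shaded band spans days 8 and 10. The matrix, endoderm and late heart genes climb through the band to day 12, and Cer1 peaks at day 5. Tdgf1 is highest at day 0, lowest at day 10 and higher again at day 12.

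The knockout line, in which LncCPR was deleted with Cas9 and a pair of guides and cells were sorted singly before expansion, gives a second series of the same days, and asks whether these changes depend on the line. The number of clones behind it is not stated. In it 109 of 12845 genes were called between day 10 and day 8 (0.849%), 91 higher (0.708%) and 18 lower (0.14%). Day 8 replicates 1 and 3 of that line held 30.2% and 25.2% of their FPKM in 10 genes, against 12.7% in replicate 2. Of the 710 genes called in the control line, 645 were tested in the knockout line, and 588 of these had the same sign (91.2%), against 65.9% of all 12437 genes tested in both. The share was 423 of 444 (95.3%) for genes higher in the control line and 165 of 201 (82.1%) for genes lower, and 76 of the 645 were called the same way in the knockout line. Col3a1 had log2 fold changes of 2.92 in the control line and 2.60 in the knockout line, Col1a1 2.71 and 2.01, Pln 2.21 and 1.66, and Vgll2 -1.89 and -2.25, in the same order of lines. Over 12 libraries the difference of the changes, control minus knockout, was called in 9 of 12821 genes (0.0702%), 3 above 0 (0.0234%) and 6 below (0.0468%), and 840 had an unadjusted p below 0.05. After rescaling 21 were called, 14 above 0 and 7 below, so the balance of directions was turned round. The median difference over all genes was -0.090 as deposited and -0.005 after rescaling. Between 3 and 7 were called when 1 of the 12 libraries was left out; it was 3 without control day 10 replicate 2, control day 8 replicate 2 or 3, knockout day 10 replicate 3 or knockout day 8 replicate 2, 4 without knockout day 8 replicate 1 or 3, and 5 without control day 10 replicate 1 or knockout day 10 replicate 1 or 2.

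In 3 of the 9 genes the control line gained more. With 0.1 added to each FPKM in place of 1, 0 genes were called above 0 and 2 below. The calls of these 3 genes, which had low levels in some groups, thus depend on that setting. Actg2 had 7.31, 12.1 and 7.88 FPKM at day 10 and 0.407, 0.690 and 0.398 FPKM at day 8 in the control line, and 1.59, 1.64 and 2.19 FPKM at day 10 and 1.48, 1.09 and 0.549 FPKM at day 8 in the knockout line. The changes differed by 2.25 (SE 0.30, adjusted p = 0.009). Col6a3 was at 0.588, 0.617 and 0.542 FPKM at day 10 and 0.150, 0.462 and 0.315 FPKM at day 8 in the knockout line, below the filter of its own comparison, and the changes differed by 2.10 (adjusted p = 0.00186). Col5a2 was at 2.89, 1.32 and 2.09 FPKM at day 10 and 1.47, 1.33 and 1.02 FPKM at day 8 in the knockout line, a difference of 1.87 (adjusted p = 0.0404). For Afp, the difference of 2.38 was as large but missed the threshold (adjusted p = 0.0857): the knockout libraries had 68.2, 100.2 and 71.8 FPKM at day 10 and 56.4, 77.9 and 48.8 FPKM at day 8.

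In the other 6 genes the control line lost more, or lost where the knockout line gained. Msx1 had 3.28, 3.52 and 2.99 FPKM at day 10 and 6.03, 4.99 and 6.26 FPKM at day 8 in the control line, against 5.18, 5.56 and 5.25 FPKM at day 10 and 2.14, 1.58 and 2.63 FPKM at day 8 in the knockout line. The order of the days was thus turned round between the lines, with a difference of -1.70 (adjusted p = 0.00866). Fgf8, which fell in the control line, had 12.6, 9.82 and 10.3 FPKM at day 10 and 14.4, 12.5 and 12.3 FPKM at day 8 in the knockout line, where its change was not called (-0.25, adjusted p = 0.447), and the difference was -1.33 (adjusted p = 0.0226). Sarcomere genes had a median log2 fold change of -0.02 in the control line and 0.48 in the knockout line, and 0 of them were called for the difference. The embryonic globin Hbb-bh1 had the largest rise of the named genes in the knockout line, 3.44, against 0.89 in the control line (adjusted p = 0.0699), and that difference was not called either (-2.54, adjusted p = 0.139).

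**Figure D5:**
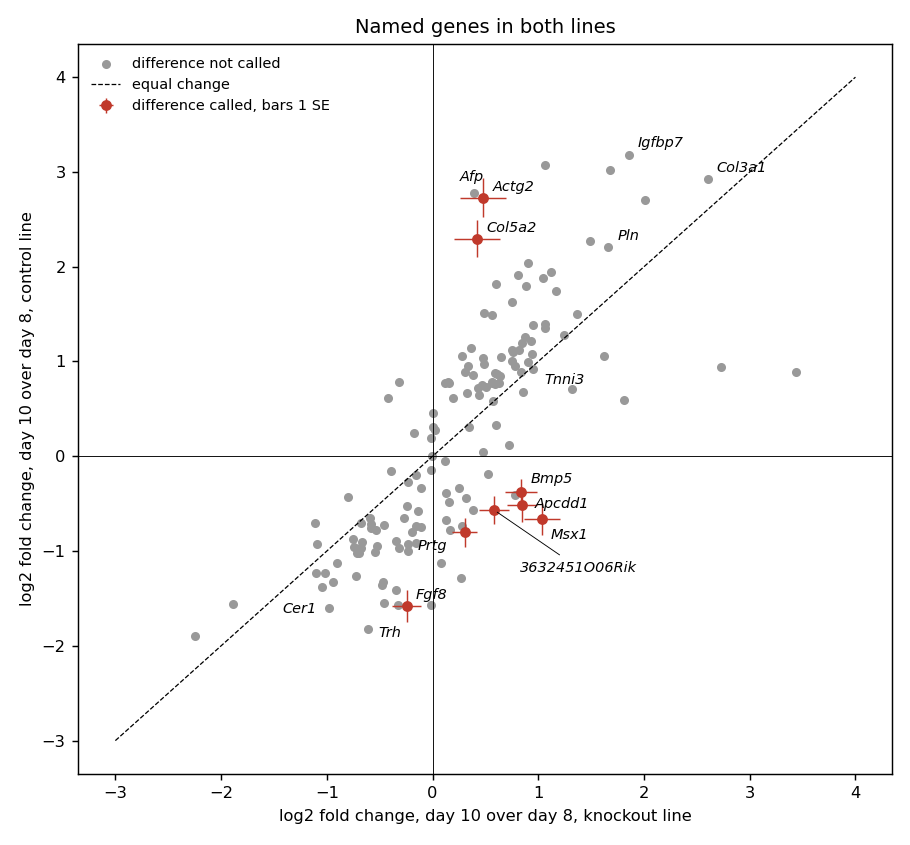
Log2 fold changes, day 10 over day 8, of the named genes in the control line (vertical axis) and the knockout line (horizontal axis), where both were tested; red points with bars of 1 SE are the genes whose changes differed between the lines, and the dashed line marks equal change. Afp, Actg2 and Col5a2 lie far above the line; Col6a3 is absent because it was below the filter in the knockout line, and titin because it was listed at 0.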

How the data were processed

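RNA was measured in 36 libraries, of which the 3 control libraries of day 10 and the 3 of day 8 enter the main comparison. The deposited values are FPKM, made by the authors with TopHat and Cufflinks on the mouse build mm9, per the submitters' processing notes; versions, settings and annotation are not given in the sources used here. FPKM divides by the library total, so an abundant transcript lowers all other values of its library. FPKM carries no counts, so absolute depth is unknown and no interval that needs counts is given. Libraries were made with ScriptSeq Complete Gold from total RNA, per the labels' protocols.

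The day 10 and day 8 tables were joined on the gene identifier. Genes averaging at least 1 FPKM were tested on log2(FPKM + 1) with limma 3.58.1 in R 4.3.3 (lmFit, eBayes with a trend), two-sided, with Benjamini-Hochberg adjustment and a threshold of 0.05, without a replicate block. The difference of changes between lines used 12 libraries and an interaction term. The code was tested on simulated data.

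Genes named are the 12 highest and 12 lowest called fold changes with no overlap and 5 FPKM or more in the higher day, short RNA left out, up to 4 called members of each of 42 lists with the largest absolute fold change, a panel of markers, and the 6 genes with the lowest interaction p. The other 3 genes called for the interaction were added after their values were seen, as were others so described. The members and lists were chosen with earlier results of these data known. Of the listed symbols, 46 matched no entry. Sequences came from RefSeq GRCm38.p6 by symbol, and chromosomes from the GRCm38 annotation by identifier (32616 of 37561 entries). Alternatives were rescaling, pseudocount, filter, variance trend, more libraries, a replicate block and leaving out libraries.

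Smc3 was the 1 gene listed at 0 in a library where the others of its day held 5 FPKM or more.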

Additional observations from a re-analysis of the deposited data

Results flagged for a closer look

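The change between day 10 and day 8 differed between the control and the knockout line in 9 genes by a test of the difference itself (limma interaction term over 12 libraries, Benjamini-Hochberg adjusted). The difference, control minus knockout, was 2.10 for Col6a3, 2.25 for Actg2 and 1.87 for Col5a2, and it was -1.70 for Msx1, -1.33 for Fgf8, -1.22 for Bmp5, -1.10 for Prtg, -1.36 for Apcdd1 and -1.15 for 3632451O06Rik, on the log2 scale.

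Bmp5, a bone morphogenetic protein, had 27.1, 27.8 and 23.9 FPKM at day 10 and 33.1, 35.004 and 35.1 FPKM at day 8 in the control line, against 22.8, 20.2 and 21.97 FPKM at day 10 and 11.4, 9.65 and 14.3 FPKM at day 8 in the knockout line (adjusted p = 0.0354). The change in the control line alone was not called (adjusted p = 0.145). Apcdd1, an inhibitor of Wnt signalling, had 10.2, 8.16 and 6.86 FPKM at day 10 and 14.7, 10.9 and 11.6 FPKM at day 8 in the control line, against 17.5, 13.9 and 15.8 FPKM at day 10 and 9.58, 8.19 and 7.24 FPKM at day 8 in the knockout line (adjusted p = 0.0469). In both genes the days stood in opposite order in the 2 lines, without overlap in either.

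Prtg, a cell surface protein of the immunoglobulin superfamily, had 41.1, 42.0 and 30.9 FPKM at day 10 and 67.6, 64.9 and 66.8 FPKM at day 8 in the control line, against 74.9, 69.1 and 62.8 FPKM at day 10 and 53.7, 59.6 and 53.6 FPKM at day 8 in the knockout line. 3632451O06Rik had 34.0, 32.0 and 29.6 FPKM at day 10 and 43.3, 55.8 and 44.9 FPKM at day 8 in the control line, against 16.1, 20.7 and 20.7 FPKM at day 10 and 11.8, 13.9 and 11.6 FPKM at day 8 in the knockout line.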

How the results depend on the processing

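With the values as deposited 710 genes were called, 502 higher and 208 lower. Median-ratio rescaling gave 1646 (905 higher, 741 lower), rescaling without mitochondrial and short RNA 1610 (1184 and 426), which moved the median of all genes by 0.062, the replicate block with median-ratio rescaling 1466 (808 and 658), and no filter on low values 65 (51 and 14), where 26863 genes were tested. The replicate block alone gave 986, with 649 higher and 337 lower, but same-numbered libraries of the days deviated from their day's means with correlations across genes of 0.0023, 0.071 and 0.092, not all over 0.1, and were not taken as pairs, though replicate 3 of both days shared its short RNA excess. Leaving out 1 library gave 353 to 747 calls, 209 to 590 higher and 103 to 297 lower. Leaving out replicate 3 of both days, chosen after seeing the data, gave 486, with 363 higher and 123 lower. For the difference between lines, 9 as deposited (3 above 0 and 6 below), rescaling gave 21 (14 and 7) and a pseudocount of 0.1 gave 2 (0 and 2). The replicate block gave 9, and leaving out 1 library 3 to 7. The cause of these shifts was not tested. Of the 131 named genes called, 0 changed sign under any alternative of the day comparison, and 129 were also called after rescaling, 96 to 119 with 1 library left out, 89 without replicate 3 of both days and 25 with no filter. FPKM gives no counts, so what depth limits could not be set.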

Other observations

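Of 34 imprinted genes tested, 5 were called higher and 1, Cdkn1c, lower, beside 3.93% and 1.63% of all genes. Those called higher include Dcn, which also stands on the matrix list. With 1 library left out, 4 to 7 were called higher and 0 to 1 lower. Plagl1, a zinc finger factor, had 119.9, 135 and 109 FPKM at day 10, against 35.8, 29.3 and 31.4 FPKM at day 8 (1.88, SE 0.15, adjusted p = 1.66e-06), and Dlk1, a membrane protein of fetal mesenchyme, 70.3, 95.6 and 69.2 FPKM at day 10, against 31.7, 21.5 and 28.0 FPKM at day 8 (1.502). The growth factor gene Igf2 (0.19, adjusted p = 0.612) and the noncoding H19 (0.24, adjusted p = 0.415), were not called. The growth inhibitor Cdkn1c fell to 70.0, 87.0 and 68.5 FPKM at day 10, against 99.3, 120.5 and 114 FPKM at day 8 (-0.56, adjusted p = 0.0432), a call that held in 2 of 6 ways to leave out 1 library.

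Cell cycle inhibitors and p53 targets gave 8 called higher and 1 lower of 28, and the count of 8 was 1 without day 10 replicate 2, 3 without day 8 replicate 2, 4 without day 10 replicate 1, and 5 without each of the other 3 libraries. The death receptor Fas had 3.99, 2.52 and 2.33 FPKM at day 10, against 0.731, 1.28 and 0.448 FPKM at day 8 (1.12, adjusted p = 0.00682). Cdkn1a, which encodes p21 and is named here after its values were seen, had 10.2, 14.2 and 11.9 FPKM at day 10, against 7.05, 5.98 and 8.75 FPKM at day 8 (0.67, adjusted p = 0.0365). Of 26 Wnt genes tested, 3 were called higher and 0 lower, beside 3.93% and 1.63% of all genes. Their median log2 fold change was -0.18, and 9 of the 26 were above 0. With 1 library left out, 2 to 4 were called higher and 0 to 1 lower. Among those called, the secreted antagonist Dkk2 had 5.18, 5.75 and 5.02 FPKM at day 10, against 1.57, 0.918 and 1.79 FPKM at day 8 (1.40, SE 0.19). The related Dkk3 had 9.80, 13.1 and 10.9 FPKM at day 10, against 4.12, 3.53 and 3.67 FPKM at day 8 (1.36, SE 0.17). By chromosome, the median log2 fold change of an autosome or the X differed from that of the other chromosomes by -0.035 to 0.034.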
